A study of Mus musculus with 12 samples.

Results

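Cluster 2 is a group of 88 mouse spermatocytes that the study's authors annotated as early pachytene and that their k-means clustering, run into 5 clusters, set apart from the larger early pachytene cluster 3. The members were taken from the authors' deposited cell table as the cells with both that annotation and that cluster number, and all 88 cells numbered 2 carried the annotation. They make up 88 of 929 kept cells. Cluster 3 holds 214 cells. Of the 88, 25 came from wild-type library 1 at 260 h and 56 from wild-type library 2 at 260 h. The other 7 came from knockout libraries collected at 360 h, 5 from library 2 and 2 from library 3.

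The study profiled single germ cells from C57BL/6 mouse testis in 4 groups of 3 libraries: wild type and Zfp541 knockout, each at 260 h and 360 h after retinoic acid. Animals of all 4 groups, controls included, were fed WIN 18,446, which blocks the synthesis of retinoic acid, for 7 days from 2 days of age (2 dpp), and were injected with retinoic acid on day 8. This treatment makes germ cells enter meiosis together, with 260 h labelled as early and 360 h as late pachytene. Cells were picked by mouth pipette, and the labels do not say how many animals a library represents, nor which part of Zfp541 was deleted in the knockout. Each library used the same 96 cell barcodes, so all 96 were shared by all libraries.

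In pachytene, homologous chromosomes are held together along their length by the synaptonemal complex while recombination is completed. The X and Y chromosomes are silenced in the sex body during this stage. Germ cells also begin to transcribe genes of the sperm tail, the acrosome and germ-cell energy metabolism long before they make sperm, in part under the transcription factors MYBL1 (A-MYB) and RFX2.

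Cluster and library could not be told apart. Of the 82 early pachytene cells of wild-type libraries 1 and 2, 81 were in cluster 2 and 1 in cluster 3. Of the 213 early pachytene cells of the other 260 h libraries, none was in cluster 2: wild-type library 3 had 72 in cluster 3, and the knockout libraries had 59, 50 and 32. The clustering used the same transcripts that are described here, so every level and fold below is a description without a test. Differences between the pre-meiotic cells (author cluster 1) of the same libraries are given with the comparison with cluster 3, since those cells share the library but not the stage.

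Levels are counts of unique molecular identifiers (UMIs, single cDNA molecules) summed over the cells of a cluster in a library and scaled to CPM, counts per 1000000 gene UMIs. Cluster 2 gave 1783543 gene UMIs in library 1 and 4054401 in library 2, so that 3 UMIs correspond to 1.68 and 0.740 CPM. Cluster 3 gave 10879840 in wild-type library 3 and 7142215, 5115144 and 2328061 in the knockout libraries. The median cluster 2 cell had 63791 gene UMIs in library 1 and 63728 in library 2, against 151010 in cluster 3 of wild-type library 3. Gene UMIs per spike-in UMI, a measure of RNA recovered per cell, had medians of 6.61 and 9.30 in cluster 2. The cluster 3 medians were 18.3 in wild-type library 3 and 9.29, 7.79 and 9.20 in the knockout libraries, so that both cluster 2 libraries lay below wild-type library 3. After each cell was thinned to 40000 gene UMIs, the median cluster 2 cell had 7243 detected genes in library 1 and 7849.5 in library 2, within the span of the cluster 3 medians (6367.5 to 7918).

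Of the 4 markers named for this cluster, 3 marked a library and not a cell class. Muc19, a gel-forming mucin (ENSMUSG00000044021.14, mm10 chr15:91838326-91934555, plus strand), had 0 UMIs in the 25 cluster 2 cells of library 1 and was at 82.6 CPM in library 2. Klhl42 (chr6:147091379-147112778, plus strand) was at 0 and 72.0 CPM, and Klhl4 (chrX:114474333-114560829, plus strand) at 0 and 48.3 CPM. Both encode kelch repeat proteins. Against a floor of 3 UMIs in library 1, these levels were at least 49.1-fold, 42.8-fold and 28.7-fold higher in library 2.

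The same transcripts were in the other cells of library 2. Its pre-meiotic cells had Muc19 at 90.8 CPM, Klhl42 at 76.2 and Klhl4 at 60.1. In cluster 2 of that library 55 of 56 cells had a Muc19 UMI, 56 had a Klhl42 UMI and 53 a Klhl4 UMI, and 11, 11 and 10 of its 11 pre-meiotic cells did. Its single cluster 3 cell carried all 3, with 5, 7 and 5 UMIs. A Muc19 UMI was also in each of the 28 barcodes of library 2 that the authors did not keep, at 112 CPM in all. In library 1, 0 of 25 cluster 2 cells had any of the 3, which allows a share of cells with a UMI of up to 12%.

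Spo11, which encodes the enzyme that makes the DNA breaks of meiosis (chr2:172977700-172993576, plus strand), was the marker present in both libraries. It was at 55.5 CPM in cluster 2 of library 1 and 132 in library 2. Cluster 3 had 111 CPM in wild-type library 3 and 42.4, 34.8 and 37.8 in the knockout libraries, so the clusters overlapped. Within libraries 1 and 2 Spo11 was higher in cluster 2 than in pre-meiotic cells, which had 15.2 and 49.8 CPM.

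**Figure D1:**
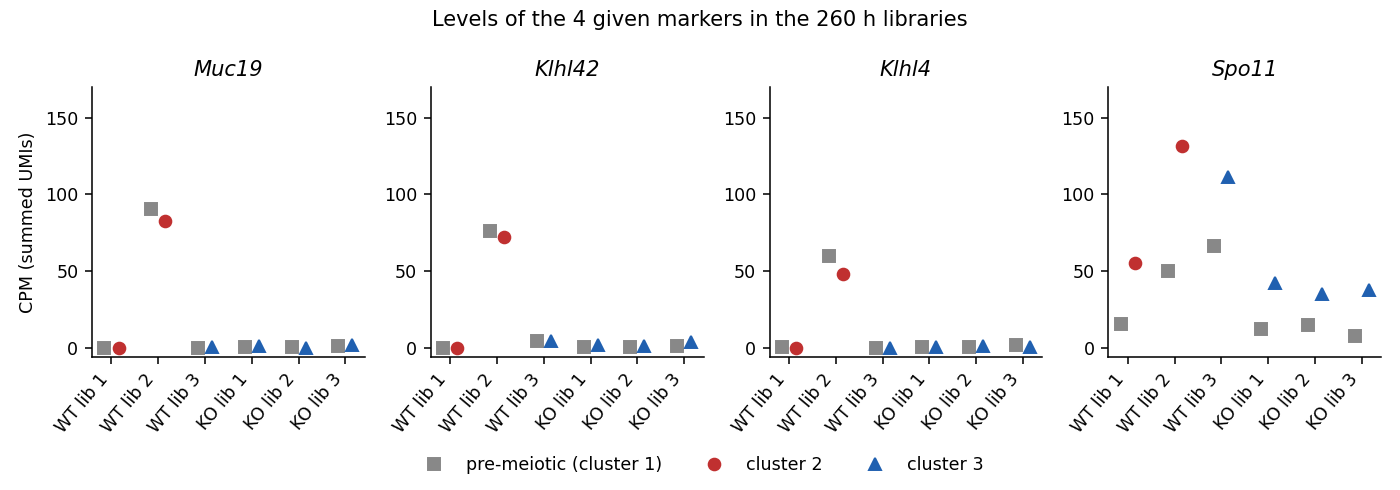
Levels of Muc19, Klhl42, Klhl4 and Spo11 in CPM (vertical axes) in the 6 libraries collected at 260 h (horizontal axes), for pre-meiotic cells (grey squares), cluster 2 (red circles) and cluster 3 (blue triangles), 1 point per summed cluster and library. Muc19, Klhl42 and Klhl4 are high in both cell classes of wild-type library 2 and near 0 in the other 5 libraries, whereas Spo11 is present throughout.

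The stage of the 81 wild-type cells was read against the pre-meiotic cells of their own libraries, 24 in library 1 and 11 in library 2. A gene was counted when its CPM differed at least 2-fold the same way in each of these libraries and its mean was at least 20 CPM. That mean ran over both cell classes. A gene low in 1 class could thus enter through its level in the other, which favours a difference. Of 7682 genes tested, 800 (10.4%) were higher in cluster 2 and 1203 (15.7%) lower. With TMM scaling the split was 1637 higher and 742 lower. From library 1 alone, without library 2, 1446 genes were higher and 1626 lower.

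Several genes of chromosome pairing were higher in the cluster. Of 13 tested genes of the synaptonemal complex and cohesin, 5 passed as higher and 0 as lower, with a median log2 ratio of 1.16 (all genes −0.03). Sycp1, the transverse filament of the complex, was at 2433 and 2383 CPM in cluster 2 of libraries 1 and 2, against 743 and 1017 in their pre-meiotic cells. The chromosome axis gene Hormad1 was at 1794 and 827 CPM against 215 and 186, and the lateral element gene Sycp3 at 1481 and 487 against 238 and 108. Sycp2 and Hormad2 also passed. In each of these genes both cluster 2 values were above both pre-meiotic values.

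The crossover list had 4 of 15 genes higher and 1 lower (median 1.17), among them Msh4, a stabiliser of recombination intermediates, at 62.2 and 96.2 CPM against 7.01 and 43.9. The list for the attachment of telomeres to the nuclear envelope had 4 of 9 higher and 1 lower (median 1.53), and Terb1 of that complex was at 56.1 and 47.4 CPM against 18.1 and 8.79. For DNA breaks the counts were 2 higher and 1 lower of 5 (median 0.77). For strand invasion they were 3 and 0 of 12 (median 0.75). Dmc1, the meiotic recombinase, did not pass, at 95.9 and 46.1 CPM against 52.6 and 30.8.

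Many genes of later germ-cell function that could be tested were higher too. Of 64 matched axoneme and cilium genes 40 were tested, with 31 past the rule as higher and none lower (median 1.93). Tekt1, which encodes a tektin of ciliary microtubules, was at 188 and 222 CPM against 24.0 and 98.1, and Dnali1, an axonemal dynein light intermediate chain, at 61.1 and 45.1 against 11.1 and 7.32. The acrosome and spermatid list, called the acrosome list here, had 33 genes. In cluster 2, 12 of them had 0 UMIs, and 8 were tested. All 8 passed as higher (median 1.85), but genes near 0 in pre-meiotic cells could be tested only through cluster 2. Of 14 germ-cell metabolic genes 9 were higher, with Hk1 lower (median 1.50). Pdha2, the germ-cell pyruvate dehydrogenase subunit, was at 395 and 418 CPM against 75.4 and 155. In the pachytene programme 14 of 25 were higher and none lower (median 1.65), including Mybl1 at 175 and 193 CPM against 18.1 and 55.7. In the piRNA pathway, which protects the germ line from transposons, 5 of 24 were higher and 2 (Henmt1 and Piwil4) lower (median 0.80). Piwil1, its pachytene Argonaute protein, was at 460 and 1075 CPM against 91.2 and 507.

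Most spermatogonial genes tested and some replication genes were lower. Of 20 spermatogonial genes tested, 17 passed as lower and 0 as higher (median −2.77). Zbtb16, a factor of undifferentiated spermatogonia, was at 6.73 and 12.1 CPM in cluster 2 against 129 and 242 in the pre-meiotic cells. Uchl1 was at 183 and 154 CPM against 1082 and 1052, and the receptor gene Kit at 21.9 and 8.39 against 132 and 55.7. Stra8, the retinoic acid target that starts meiosis, was at 9.53 and 37.7 CPM against 60.8 and 382, and a Stra8 UMI was still in 12 of 25 and 52 of 56 cells. Of 25 genes of DNA replication, 9 were lower and 0 higher (median −1.03).

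By size of the ratio, the genes named as higher were Kcnk10, a potassium channel gene, Aym1, Fam228a, Zfp389, Ccdc89, Hist1h2ba, Ankar, Stard6, Qsox2 and Pabpc2. Kcnk10 was at 206 and 215 CPM against 15.2 and 20.5. Hist1h2ba, a testis variant of histone H2B, was at 174 and 32.3 CPM against 15.8 and 4.39. Those named as lower were Xlr5b, Zbtb16, Uba1y, Xlr, Nab2, Xlr5a, Gsto1, Ftl1, Erg and Rpl36a-ps2. Xlr5b, Xlr and Xlr5a are X-linked and Uba1y is Y-linked. The Xlr genes have near-identical copies, as do Ftl1 and Rpl36a-ps2, and reads could be split among such copies in counting. Ftl1, the ferritin light chain, was at 35.3 and 14.1 CPM against 583 and 400.

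This stage difference was mostly common to cluster 3. Of the 800 genes higher in cluster 2, 761 (95.1%) were higher in cluster 3 than in pre-meiotic cells inside each of the other 4 libraries collected at 260 h, against 34.7% of all genes tested. Of the 1203 lower genes, 1140 (94.8%) were lower in each of the 4, against 35.3%. At the 2-fold threshold the shares were 60.5% and 64.6%, against 8.21% and 11.5%. These libraries share no cells or controls with the cluster 2 comparison.

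**Figure D2:**
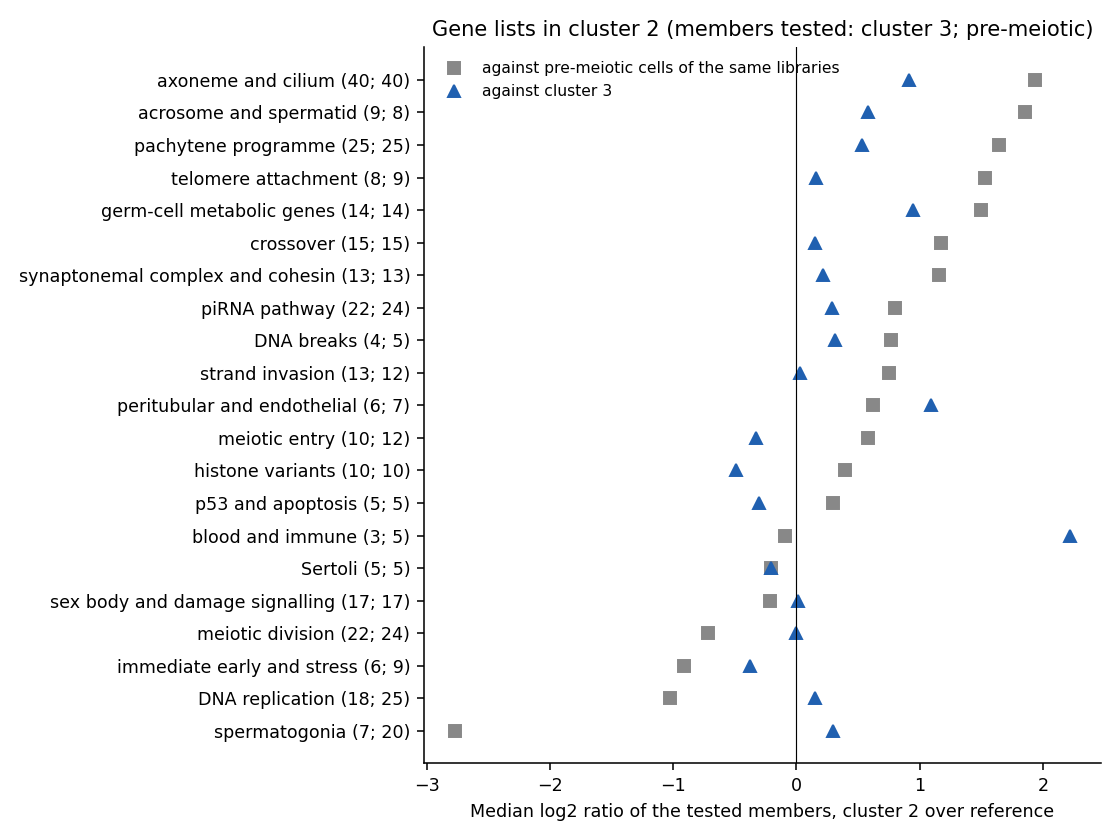
Median log2 ratio (horizontal axis) of the tested members of each gene list (vertical axis), cluster 2 over pre-meiotic cells of the same libraries (grey squares) and cluster 2 over cluster 3 (blue triangles), with the members tested in brackets. The axoneme list lies at 1.93 and 0.91 and the spermatogonial list at −2.77 and 0.29, against medians of −0.03 and −0.05 over all genes.

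Promoter sequences were read from the RefSeq promoter table (GRCm38.p6, 250 bases before to 50 after each annotated start) because Mybl1 was among the genes higher in the cluster. A gene was counted as holding a motif when any of its annotated starts did, so genes with more starts could be counted more often. Of the 800 higher genes, 597 matched the table, and 34.5% of these held TAACNG, the core of the motif bound by MYB proteins, on either strand. The share was 23.4% over the 5993 matched genes of those tested, 21.3% over the 933 matched lower genes and 25.9% over all 27025 genes of the table. GTTGCC, part of the motif bound by RFX factors, was in 24.8% of the higher genes, 15.8% of those tested, 14.6% of the lower genes and 14.1% of all. Matches to the different motifs could share bases, and a match describes letters in the window and not a bound site. The 120 bases just upstream of a start that holds a match are shown for 4 genes described here, 5′ to 3′ on the gene's strand, with each TAACNG match or its reverse complement in capitals. They are Hormad1 (chr3:95559557-95559676, plus), Sycp1 (chr3:102936101-102936220, minus), and internal starts of Piwil1 (chr5:128736126-128736245, plus) and Tcp11 (chr17:28079765-28079884, minus).
Hormad1: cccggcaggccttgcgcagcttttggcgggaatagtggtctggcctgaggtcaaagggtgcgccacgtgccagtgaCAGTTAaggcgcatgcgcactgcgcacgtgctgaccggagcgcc
Sycp1: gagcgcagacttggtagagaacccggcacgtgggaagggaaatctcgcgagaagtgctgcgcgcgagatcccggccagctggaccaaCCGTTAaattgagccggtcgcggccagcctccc
Piwil1: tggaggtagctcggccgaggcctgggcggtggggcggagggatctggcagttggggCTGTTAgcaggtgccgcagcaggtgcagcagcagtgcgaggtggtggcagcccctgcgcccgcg
Tcp11: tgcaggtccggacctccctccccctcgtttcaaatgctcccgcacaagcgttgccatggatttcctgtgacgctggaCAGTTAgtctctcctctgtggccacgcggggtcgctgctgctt

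X-linked transcripts were low in the wild-type cells. They took a median of 0.567% of gene UMIs per cell in cluster 2 of library 1 and 0.356% in library 2. The pre-meiotic cells of these libraries had 2.43% and 1.73%. Cluster 3 had medians between 0.351% (wild-type library 3) and 0.477% (knockout library 3), so library 1 lay above all 4 cluster 3 libraries and library 2 among them. Only 1 of 25 and 1 of 56 wild-type cells were above 1%. Of 165 X-linked genes tested against pre-meiotic cells, 145 (87.9%) were lower and 0 higher, with a median log2 ratio of −2.89. Only 45 X-linked genes had a mean of at least 20 CPM over cluster 2 of libraries 1 and 2. Most of the 165 thus entered through their pre-meiotic level, which favours lower calls. The shares per cell use all X-linked genes. Of 7499 autosomal genes, 1052 (14.0%) were lower, with a median of −0.002.

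Among the 15 X-linked genes highest in cluster 2, 12 had a log2 ratio above this median, 7 passed as lower and 8 did not pass. They were picked by their cluster 2 level, which is part of the ratio, so the choice itself favoured ratios above the median. Some of the 15 are predicted genes. Ndufa1, a subunit of mitochondrial complex I, was at 514 and 363 CPM in cluster 2 against 281 and 189 in pre-meiotic cells, above them in both libraries. Prdx4, a peroxiredoxin, had a log2 ratio of −0.41, and Fmr1nb, a testis gene, one of −0.10. Huwe1 and Taf7l lay below the median. Huwe1, a ubiquitin ligase, was at 62.2 and 31.8 CPM against 610 and 460. Taf7l, a germ-cell subunit of the transcription factor TFIID, was at 58.3 and 55.0 against 570 and 451. Ndufa1, Prdx4 and Fmr1nb were named after their values were seen. All 6 Y-linked genes tested were lower in cluster 2 (median −3.04).

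**Figure D3:**
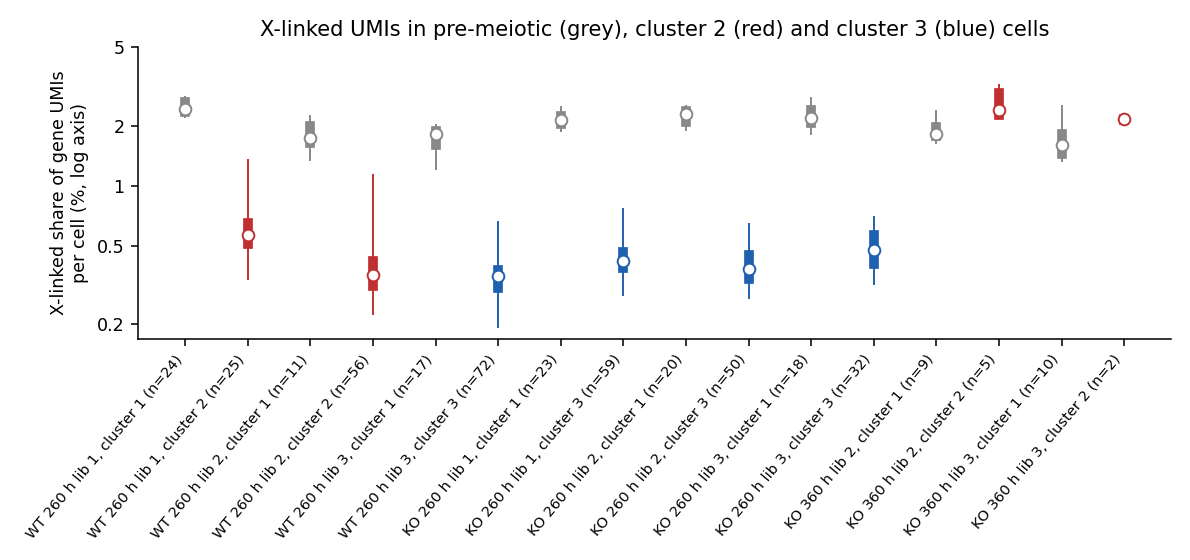
Share of a cell's gene UMIs that is X-linked (vertical axis, percent, log scale) by library and cluster (horizontal axis), for pre-meiotic cells (grey), cluster 2 (red) and cluster 3 (blue). Circles are medians over cells, thick bars the middle 50% of cells and thin lines the full range. The wild-type cluster 2 medians of 0.567% and 0.356% lie far below the pre-meiotic medians, the first above and the second within the cluster 3 medians, and the 7 knockout cells of cluster 2 lie with the pre-meiotic cells, above 2%.

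The 7 knockout cells differed from the 81 wild-type cells in this respect. Their X-linked shares were 2.21%, 2.28%, 3.23%, 2.93% and 2.40% in library 2 and 2.14% and 2.20% in library 3, all above every wild-type cell of the cluster. Prdm9, the histone methyltransferase that places meiotic breaks, was at 98.2 to 753 CPM in the 7 cells, against 3.92 and 3.95 CPM in cluster 2 of the wild-type libraries. Stra8 was at 60.0 to 4300 CPM and Dmc1 at 16.4 to 932 CPM in single cells. Zbtb16 had 0 UMIs in 6 of the cells and 1 in the seventh. Zfp541 itself had 3 to 8 UMIs per cell, 51.1 to 170 CPM. Because the assay counts 3′ ends and the sources used here do not name the deleted part, this checks nothing about the genotype label.

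Pooled, the 7 cells held 405156 gene UMIs and form 1 sample, so values carry a 95% Poisson interval for counting error only. Prdm9 had 201 UMIs, 496 CPM (430 to 570). Ccnb3, an X-linked cyclin of early meiotic prophase, had 162 UMIs, 400 CPM (341 to 466), against 2.24 and 3.21 CPM in the wild-type libraries. Of 7233 genes, 1202 (16.6%) were at least 2-fold higher in the pool and outside both wild-type libraries, and 1203 (16.6%) lower. Among them were 159 of 173 X-linked genes as higher and 1 as lower (median log2 ratio 3.37) and 6 of 6 Y-linked genes as higher. Only 45 X-linked genes had a mean of at least 20 CPM over the wild-type libraries of the cluster. Most of the 173 could thus be compared only through their level in the pool, which favours higher calls. Of the axoneme list 27 of 41 were lower and none higher (median −1.42), of the piRNA pathway 11 of 21 lower (−1.21), of the pachytene programme 12 of 26 lower (−0.95). Of DNA replication 12 of 23 were higher and 1 lower (1.01). The annotation of these 7 cells as early pachytene is thus at odds with their X-linked level, that of Ccnb3 included. Prdm9 was not particular to them. In the late pachytene cells (author cluster 4) of the same libraries, 65 of 66 and 73 of 77 had a Prdm9 UMI. The medians were 9 and 5 UMIs, against 33 and 10.5 in the cluster 2 cells. A Stra8 UMI was in 64 and 76 of these late cells, whose median X-linked shares were 0.309% and 0.297%. Pachytene markers were mixed in the 7 cells. Sycp1 was at 2118 CPM in the pool against 2433 and 2383 in wild-type libraries 1 and 2, and Ldhc at 1688 against 1788 and 1995. Piwil1 was at 316 against 460 and 1075, and Tcfl5 at 9.87 against 60.6 and 59.9. The 7 cells entered none of the summed comparisons, since neither library reached the minimum of 10 cells. Genotype, library and collection time cannot be told apart in them.

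Against cluster 3 a gene was counted when the mean CPM differed at least 2-fold, the libraries of the clusters (2 and 4) did not overlap and the mean over all 6 was at least 20 CPM. Of 7075 genes tested, 217 (3.07%) were higher in cluster 2 and 452 (6.39%) lower. The split was 152 higher and 566 lower with TMM scaling, and 21 and 915 with scaling by spike-in UMIs, which moved the median of all genes from −0.05 to −0.52. Without library 2 of wild type, 367 genes were higher and 1030 lower, and without library 3 of wild type 327 were higher and 614 lower.

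The genes named as higher were Prok2, Abcc12, Scgb2b23-ps, Sept12, Stpg4, Crybg3, Dnali1, Tcp11, Tmem232 and Gramd1b. Prok2, a secreted prokineticin (chr6:99711299-99726392, minus strand), was at 69.0 and 192 CPM in cluster 2 of libraries 1 and 2. Cluster 3 had 37.0 CPM in wild-type library 3 and 2.52, 4.69 and 3.44 in the knockout libraries. Tcp11, a sperm flagellar gene (chr17:28066745-28080639, minus strand), was at 101 and 131 CPM, against 41.7 in wild-type library 3 and 17.8, 22.9 and 9.45 in knockout. Sept12, a septin of the sperm annulus, was at 28.6 and 63.4 CPM against 16.7 and 1.96, 6.65 and 3.01. In these genes wild-type library 3 was the cluster 3 library nearest to cluster 2. Between the pre-meiotic cells of the same libraries the log2 difference was 2.39 for Prok2, 1.34 for Tcp11 and 1.21 for Sept12.

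The axoneme list stood out by count, with 12 of 40 genes higher than cluster 3 and none lower, at a median log2 ratio of 0.91 (all genes −0.05). The median stayed above 0 under each scaling (0.48 to 0.93), while the count was 2 of 38 with spike-in scaling. Cfap206, which encodes a protein at the base of radial spokes in cilia, was at 104 and 172 CPM against 94.6 in wild-type library 3 and 27.2, 16.6 and 20.2 in knockout. Cfap126, Cfap45, Ccdc39, Drc1, Hydin, Dnaaf1, Tekt1, Ccdc40, Cfap70, Rsph9 and Dnali1 were the others. Tekt1 was at 188 and 222 CPM against 109 and 66.9, 48.9 and 38.7. The pre-meiotic log2 difference was 1.33 for Cfap206 and 1.52 for Tekt1.

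The pachytene programme had 5 of 25 higher and none lower (median 0.53): Meig1, Spata16, Ldhc, Tcp11 and Insl6. Ldhc, the lactate dehydrogenase of germ cells, was at 1788 and 1995 CPM against 875 and 973, 765 and 712. Spata16, of acrosome formation, was at 88.0 and 127 CPM against 54.0 and 10.6, 33.6 and 7.73. The pre-meiotic log2 difference was 1.31 for Ldhc and 0.97 for Spata16. The metabolic list had 3 of 14 higher and none lower (Gk2, Ldhc and Prps1l1; median 0.95). Of 9 acrosome genes, Acrbp and Crisp2 were higher and Spaca1 lower (median 0.58). With spike-in scaling the pachytene and metabolic counts were 0, though both medians stayed above 0 (0.10 and 0.37). Without library 1 or without library 3 of wild type the metabolic count was 7, and without library 2 the acrosome count was 1 higher.

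Few chromosome pairing and recombination genes were past the rule between the clusters, where 3.07% of all genes were higher and 6.39% lower, so that lists of this size would hold few or none at that share. No gene of the synaptonemal complex list (13), the crossover list (15), telomere attachment (8), DNA breaks (4) or the piRNA pathway (22) was past the rule. Their medians lay between 0.15 and 0.31, and each was below 0 with spike-in scaling. Leaving out 1 wild-type library put at most 2 genes of any of these lists past the rule. Of 13 strand invasion genes, Dmc1 and Rad51ap2 were lower, with 4 lower under spike-in scaling and 1 without library 2. Dmc1 was at 95.9 and 46.1 CPM against 152 and 180, 141 and 134. Sohlh2, a helix-loop-helix factor of early germ cells, was the lower gene among 10 of meiotic entry, at 132 and 88.1 CPM against 230 and 383, 351 and 323. That count was 2 of 11 without library 1 of wild type, 3 of 11 without library 2, 4 of 11 without library 3 and 3 of 10 with spike-in scaling. The pre-meiotic log2 difference was −0.89 for Dmc1 and −0.52 for Sohlh2. Zfp541 was at 69.0 and 105 CPM against 148 in wild-type library 3 and 164, 131 and 145 in the knockout libraries, which did not reach 2-fold.

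The genes named as lower were Tmem259, Mmp11, Pcsk1n, Hist1h1e, Trp53i13, Tcf7l2, Scand1, Mpv17l2, Dek and Prss50. Histone genes made up a group here, with 4 of 10 histone variants lower and 0 higher (median −0.49, and below 0 under each scaling). Hist1h1e, a linker histone (chr13:23620629-23622558, minus strand), was at 3.92 and 1.48 CPM against 17.8 and 28.8, 84.7 and 29.6. H1fx, another linker histone, was at 21.9 and 44.6 CPM against 308 and 142, 122 and 147. H2afx, whose phosphorylated product marks the sex body, was at 128 and 319 CPM against 703 and 720, 683 and 563. H2afv was the other. The pre-meiotic log2 difference was −3.24 for Hist1h1e, −3.02 for H1fx and −0.88 for H2afx. Against wild-type library 3 alone, 2 histone variants were higher and 3 lower of 9.

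Other lower genes were Bax, a promoter of apoptosis, at 30.3 and 26.9 CPM against 60.5 and 145, 94.2 and 88.1, and Sgo1, which protects centromeric cohesion, at 26.4 and 23.4 against 30.6 and 72.5, 54.9 and 83.8. Prss50, a testis protease, was at 43.2 and 45.9 CPM against 211 and 494, 428 and 390. Both cluster 2 values lay well below cluster 3 in Prss50, whereas in Sgo1 wild-type library 3 lay close to cluster 2. The pre-meiotic log2 difference was −2.28 for Prss50, −0.99 for Bax and −0.06 for Sgo1.

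**Figure D4:**
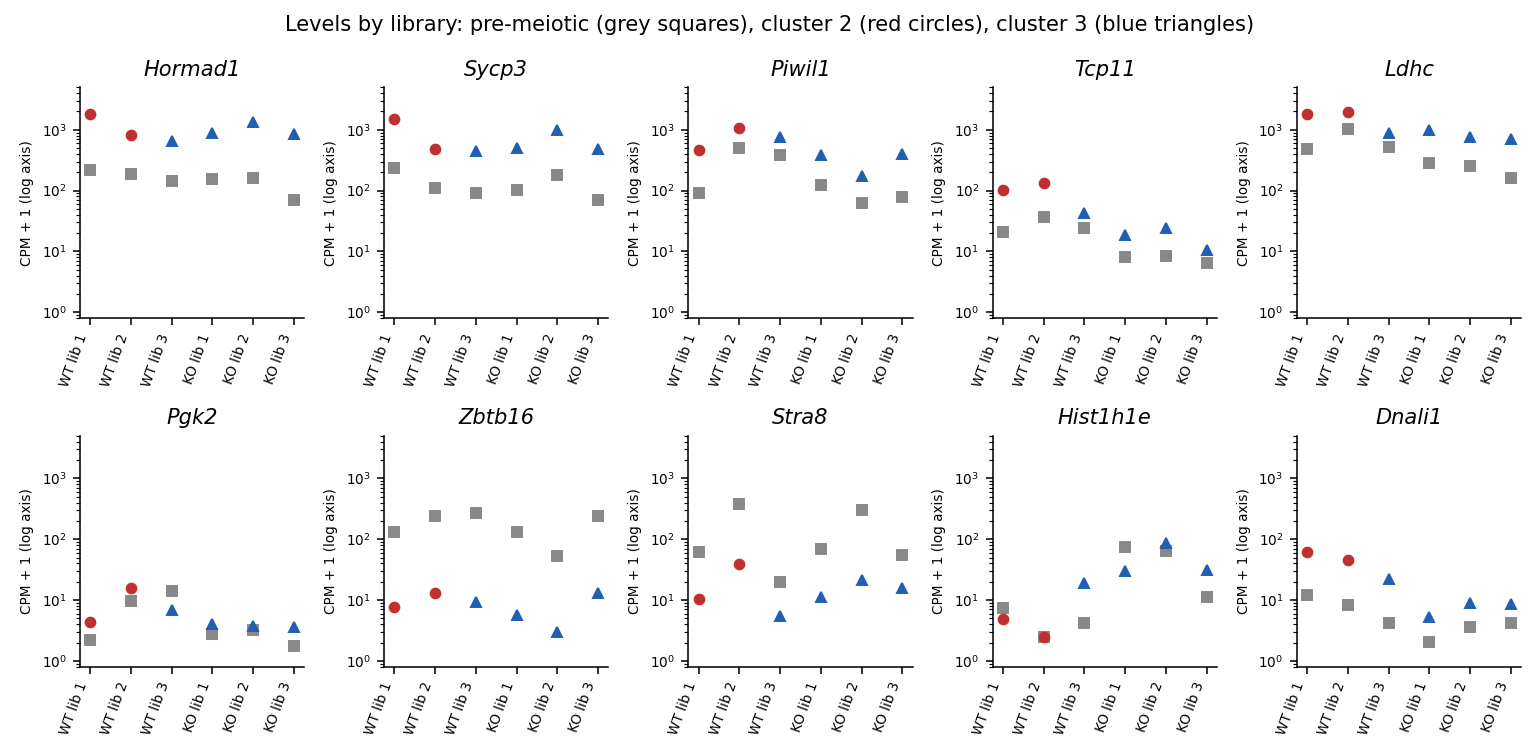
Levels of 10 genes (CPM plus 1, vertical log axes) in the 6 libraries collected at 260 h (horizontal axes), for pre-meiotic cells (grey squares), cluster 2 (red circles) and cluster 3 (blue triangles). Tcp11, Ldhc and Dnali1 are higher in cluster 2 than in every cluster 3 library and Hist1h1e lower, while Hormad1, Sycp3, Piwil1 and Zbtb16 overlap between the clusters.

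Much of this difference was also present between the pre-meiotic cells of the same libraries. Of the 217 genes higher in cluster 2, 107 (49.3%) were at least 2-fold higher in pre-meiotic cells of libraries 1 and 2 than in those of the 4 cluster 3 libraries, against 3.58% of all genes tested. Of the 452 lower genes, 202 (44.7%) were 2-fold lower there, against 4.96%. With no overlap of libraries as well, the pre-meiotic difference held for 51 of the 217 (23.5%), against 1.72% of all genes, and for 175 of the 452 (38.7%), against 4.03%. Without the genes 2-fold apart 110 higher and 250 lower genes were left. Tmem259 was at 0 and 1.97 CPM in cluster 2 and at 0.585 and 0 in pre-meiotic cells of libraries 1 and 2, against 32.8 to 68.9 in cluster 3. Prok2 was at 5.85 and 108 CPM in the pre-meiotic cells of libraries 1 and 2 and at 19.0 in those of wild-type library 3.

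The ratio of cluster to pre-meiotic cells within a library takes out a fold difference common to both cell classes of a library. It also carries differences in the pre-meiotic cells themselves, 24 in library 1 and 11 in library 2. Their median Piwil1 count was 6.5 and 34 UMIs and their median Stra8 count 2 and 8. A library difference and a difference in the stages of these cells cannot be told apart by the ratio. By this ratio 19 of the 217 genes (8.8%) were 2-fold higher in libraries 1 and 2 than in the cluster 3 libraries without overlap, against 0.806% of all genes, and 48 of the 452 (10.6%) were lower, against 1.53%. For the axoneme list the median log2 value was 0.91 between the clusters, 0.79 between the pre-meiotic cells and 0.23 for the within-library ratio. For the metabolic list these were 0.95, 0.79 and −0.09, for the pachytene programme 0.53, 0.47 and 0.03, and for histone variants −0.49, −0.88 and −0.02. Without genes 2-fold apart the same way in pre-meiotic cells, 6 of the 12 axoneme genes, 2 of the 5 pachytene genes, 1 of the 3 metabolic genes and 1 of the 4 histone variants were left. Whether transcripts shared within a library entered these values was not tested.

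**Figure D5:**
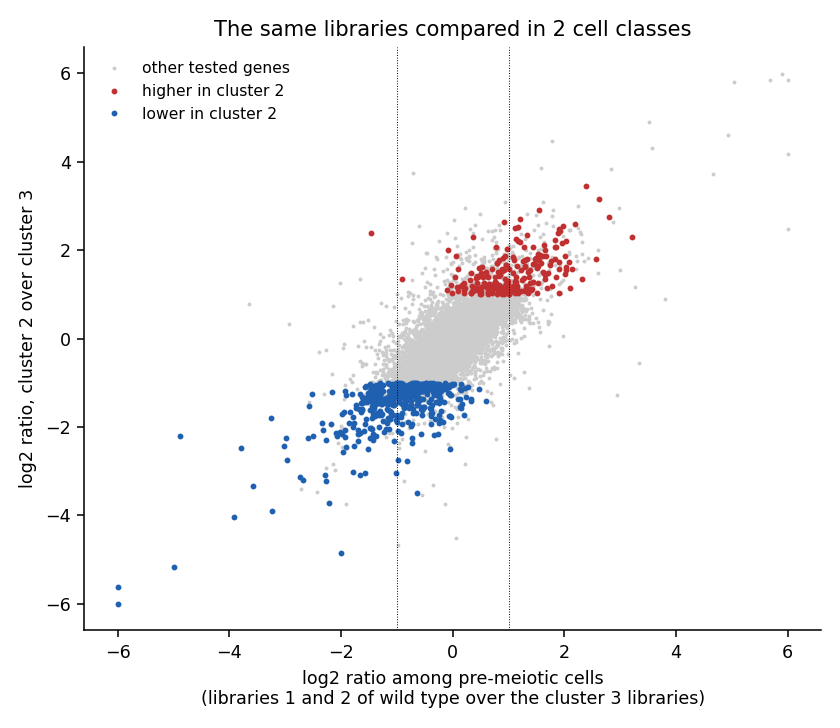
Each tested gene by its log2 ratio between pre-meiotic cells of wild-type libraries 1 and 2 and those of the 4 cluster 3 libraries (horizontal axis) and by its log2 ratio of cluster 2 over cluster 3 (vertical axis), both drawn within −6 and 6. Red points are the 217 genes higher and blue points the 452 genes lower in cluster 2; 107 red points lie right of the dotted line at 1 and 202 blue points left of that at −1.

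Cluster 3 mixes genotypes, and wild-type library 3 was its only wild-type library of 10 or more cells. Of the 217 higher genes, 130 (59.9%) also had a cluster 2 mean at least 2-fold above wild-type library 3 alone. Of the 452 lower genes, 268 (59.3%) had a mean at least 2-fold below it. To place the cells along pachytene, genes were taken from wild-type cluster 5 (late pachytene, 360 h) against the knockout libraries of cluster 3, which use neither cluster 2 nor wild-type library 3. Genotype, stage and collection time differ together in this choice. The genes called late-high and late-low below may therefore differ by genotype and not by stage, which cannot be told apart. Of 7331 genes, 1650 (22.5%) were higher and 1835 (25.0%) lower in the late cells. The 1067 late-high genes that could be read had median log2 ratios of 0.28 and 0.42 in cluster 2 of libraries 1 and 2 over wild-type library 3, against −0.25 and −0.08 over all 7054 genes. Of them, 126 (11.8%) were 2-fold higher in both libraries, against 3.22% of all genes. The 1733 late-low genes had medians of −0.58 and −0.39, and 133 (7.68%) were 2-fold lower in both, against 3.40%. In the pre-meiotic cells of the same libraries the medians were −0.26 and 0.28 for the late-high genes and −0.48 and −0.24 for the late-low genes, against −0.35 and −0.07 over all genes.

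Against all other kept cells, summed in each of the 12 libraries, few genes set cluster 2 apart. Of 7609 genes tested, 17 (0.223%) were higher than in every library and 43 (0.565%) lower, by at least 2-fold in the mean. With spike-in scaling there were 0 and 175, and with TMM scaling 8 and 53. Without library 1 of wild type there were 50 and 74, without library 2 of wild type 112 and 257, and without library 3 of wild type 37 and 60. These reference sums differ in their mix of stages. Sycp1 was among the higher genes, at 2433 and 2383 CPM against 238 to 1994 in the other cells, but cluster 3 alone reached 2581 CPM in knockout library 3.

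Zfp820, a zinc finger gene (chr17:21816885-21845772, minus strand), was at 313 and 228 CPM in cluster 2 against 3.35 to 190 in the other cells. It was not high in cluster 2 alone, since cluster 3 of wild-type library 3 had 219 CPM. The knockout libraries of cluster 3 had 11.1, 7.82 and 20.6, and the 7 knockout cells of cluster 2 had 3 UMIs, 7.40 CPM. Stambp, a deubiquitinase, was at 465 and 699 CPM against 194 in wild-type library 3 and 135, 108 and 147 in knockout. The others named as higher were Ncaph, Nespas, Mfap5, Dera, Fxyd2, Ppil6 and Sparc. Nespas is an antisense transcript, and the sources used here do not say whether counting used strand.

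Named as lower were Pou5f2, Rex1bd, Epcam, Dst, Foxp1, Rasa3, Phf2, Tlcd1, Dyrk3 and Slc22a21. Epcam, an adhesion molecule of spermatogonia, was at 12.9 and 14.3 CPM against 36.3 to 139 in the other cells. Pou5f2, a POU factor of spermatocytes, was at 1.12 and 1.23 CPM against 1.67 to 301. Cluster 3 was close to that low level, at 2.11 CPM in wild-type library 3 and 4.48, 2.35 and 1.29 in knockout.

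The 2 wild-type libraries of the cluster also differed from each other. Of 6979 genes compared, 604 (8.65%) were at least 2-fold higher in library 2 and 249 (3.57%) at least 2-fold lower. Of these, 334 and 125 were also 2-fold apart the same way between their pre-meiotic cells. The 45 X-linked genes compared had a median log2 ratio of −0.84, library 2 over library 1, against 0.15 for all genes. Sycp3 was at 1481 CPM in library 1 and 487 in library 2, and Piwil1 at 460 and 1075.

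The genes with the largest ratios were Muc19, Klhl42, Klhl4, Mapk15 and Dohh toward library 2 and Hbb-bs, Hbb-bt, Hba-a1, Hba-a2 and Rps3a3 toward library 1. The globin transcript Hbb-bs was at 313 CPM in cluster 2 of library 1 and had 0 UMIs in that of library 2. Pre-meiotic cells had 355 CPM in library 1 and 0 UMIs in library 2, so the globin level went with the library. Mapk15 was at 3.36 and 44.6 CPM and Dohh, which completes the hypusine of a translation factor, at 5.05 and 42.4. Rps3a3 has near-identical copies.

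Transcripts of somatic testis cells were present in both libraries. Hsd3b1, a steroid enzyme of Leydig cells, was at 22.4 and 12.3 CPM in cluster 2 and at no more than 0.430 CPM in the 4 cluster 3 libraries. Cyp17a1, of the same pathway, was at 24.1 and 17.0 CPM against at most 0.586. C1qa, a complement gene of macrophages, was at 11.2 and 18.5 CPM against at most 0.430. The pre-meiotic cells of these libraries had like levels, 27.5 and 10.3 CPM for Hsd3b1, 31.6 and 16.1 for Cyp17a1 and 14.0 and 20.5 for C1qa. A Hsd3b1 UMI was in 20 of 25 and 30 of 56 cluster 2 cells, at 63791 and 63728 median gene UMIs, and in 19 of 24 and 5 of 11 pre-meiotic cells, at 71666 and 65660. Whether these UMIs came from expression in the cells or from RNA of other cells was not tested.

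Over whole lists, 9 of 10 Leydig genes had a UMI in cluster 2, with a summed level of 221 and 212 CPM against 143 to 216 in cluster 3. The Leydig hormone gene Insl3 had 0 UMIs in both libraries. All 18 blood and immune genes had a UMI, with summed levels of 810 and 165 CPM against 24.1 to 266. Globin genes held much of the sum of library 1. Hbb-bs was at 313, Hba-a1 at 181 and Hba-a2 at 140 CPM there, against 0, 0 and 0.493 in library 2. The immune cell gene Ptprc was at 2.24 and 0.247 CPM. Sertoli genes summed to 589 and 350 CPM against 421 to 626, with 17 of 18 having a UMI, and Amh was at 0.561 and 0 CPM. Peritubular and endothelial genes summed to 376 and 322 CPM against 58.0 to 296. Of these lists, 1 of 6 peritubular and endothelial genes (Col1a1) was past the rule against cluster 3 and none of the others was. These counts rest on single libraries. Without library 2 of wild type, 4 of 4 blood and immune genes and 3 of 6 peritubular and endothelial genes were higher. Without library 1 the only blood and immune gene tested was lower and 2 of 4 peritubular and endothelial genes were higher. Without library 3 none of the 6 was, and against library 3 alone 5 of 6 were. The part of these transcripts in the differences from cluster 3 was not tested.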

How the data were processed

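The deposited values were raw UMI counts per gene and cell barcode. Per the submitters' processing notes the tools named by the authors were featureCounts 1.6.4, STAR 2.5.3a and UMI-tools 1.0.0, with genome build mm10. The sources used here give no settings, cell filter, strand or doublet treatment, and no doublet caller was run. The authors' deposited cell table gave cells, clusters and classes. Counts of 55450 genes were summed per cluster and library with at least 10 cells and scaled to CPM, leaving out 92 spike-ins. Genes with 0 UMIs in a sum were set to 3 UMIs for ratios. Of the rules, only that of the cluster 3 comparison was tried on simulated data, with 4-fold changes and not at the 2-fold limit. No p-value was computed, and edgeR 4.0.16 gave only TMM factors. Named genes were the 10 largest ratios each way per comparison (predicted genes left out), 5 each way between libraries, markers, and up to 4 per list. The cells, the 23 lists (467 of 473 genes matched) and comparisons were chosen with earlier results of these data known. Python 3.11.15, numpy 2.4.6, pandas 2.3.3 and R 4.3.3 were used.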

Additional observations from a re-analysis of the deposited data

Results flagged for a closer look

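Somatic transcripts stood out in the barcodes of the cluster 2 libraries that the authors left out of their cell table, 44 in wild-type library 1 and 28 in wild-type library 2 at 260 h, which no comparison used. Hsd3b1, a Leydig cell gene, was at 214 CPM in those of library 1 (302 UMIs) and 138 CPM in those of library 2 (169 UMIs). In the other 260 h libraries, taken as controls, the level in left-out barcodes was 0 to 13.8 CPM. A single barcode held 224 and 142 of these UMIs, and without it the levels were 57.3 and 22.7 CPM. C1qa, a macrophage gene, was at 197 CPM in library 1 and 171 CPM in library 2, against 0 to 1.47 CPM in the controls, and at 87.7 and 77.9 CPM without the highest barcode. The barcodes come from the same libraries as the cluster 2 cells, and whether their RNA reached those cells was not tested.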

How the results depend on the processing

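No paired analysis was possible because no test was run to which a replicate block could be added, and replicate numbers pair no libraries across groups. Ratios inside a library stand in the report. Against cluster 3, the main counts of 217 higher and 452 lower were 21 and 915 with spike-in scaling and 575 and 732 with a mean of at least 5 CPM. With wild-type library 3 alone as reference, chosen after seeing the data, 512 were higher, and without genes 2-fold apart in pre-meiotic cells, also chosen after seeing the data, 110 and 250. Leaving out 1 library gave 207 to 367 higher and 402 to 1030 lower. Against pre-meiotic cells, 800 and 1203 became 1637 and 742 with TMM scaling, which moved the median of all genes from −0.03 to 0.37. A mean of at least 5 CPM gave 2502 lower, and libraries with at least 5 cells, which add the 5 knockout cells, gave 144 and 647. Leaving out 1 library gave 1003 to 1446 and 1521 to 1626. Against all other cells, 17 higher and 43 lower became 8 higher with TMM, 0 and 175 with spike-in scaling, 38 and 80 with at least 5 CPM, and 6 and 22 with libraries of at least 5 cells. Leaving out 1 library gave 17 to 112 and 41 to 257. The spike-in result moved with the median of all genes, and the cause was not tested for the rest. Unthinned cells had medians of 8381 and 9219 detected genes. The other settings run kept the X-linked share and spike-in ratio within 1 SD over cells. No named gene past a rule reversed under the 4 other scalings or sums. With 2 libraries, depth and library limit every comparison.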
